A study of Mus musculus with 29 samples.

Results

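The comparison described here sets the caudate-putamen of naive TgS mice against that of naive TgR mice, 2 arrays of each, chosen by their titles out of 29 arrays in the series. TgS mice carry human AChE-S and TgR mice carry human AChE-R, 2 splice variants of acetylcholinesterase, and both lines are on the FVB/N background. The naive arrays are labelled as not exposed to MPTP, a toxin of dopamine neurons, apart from a conflicting description of an FVB/N array given below. The labels do not give the promoters that drive the transgenes, the age and sex of the mice, or the number of mice behind an array. Nor do they say whether naive mice are the saline-injected ones, or whether replicates are separate animals, so the p-values measure only the spread between these arrays, which may be technical.

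Values from other groups were set beside these. They come from the parent FVB/N strain without a transgene (naive caudate-putamen, 2 arrays), from the naive prefrontal cortex of TgS and TgR mice (8 arrays), and from mice of both lines exposed to MPTP (4 prefrontal arrays and 3 caudate-putamen arrays). MPTP was injected 4 times at 20 mg/kg every 2 h (80 mg/kg in all), and tissue was taken 4 days later. The TgR caudate-putamen after MPTP has 1 array, which is assumed to vary like the rest. The description of FVB/N caudate-putamen replicate 2 says MPTP-exposed, while its title, source and treatment labels say naive, and it is kept as naive here.

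Acetylcholinesterase breaks down acetylcholine in the synapse. The S (synaptic) variant has a tail that joins enzyme subunits and anchors them to membranes, whereas the R (readthrough) variant keeps an intron-derived tail, stays soluble and rises under stress. The caudate-putamen has the densest cholinergic fibres of the forebrain, which arise from its own interneurons, and receives dopamine axons from the midbrain. Most of its neurons are GABAergic projection neurons. The lateral ventricle, with its ependymal lining and choroid plexus, borders this region, and the cortex, septum, thalamus and hypothalamus are its neighbours.

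The arrays bear out the labelled tissue. The mean RMA signal (a log2 scale) of 18 striatal projection neuron markers was 10.35 to 10.70 on the 11 caudate-putamen arrays and 8.18 to 9.17 on the 18 prefrontal arrays, with no overlap. The cortical glutamatergic list of 14 genes ran the other way, from 8.17 to 9.16 in the caudate-putamen and 9.97 to 10.16 in the prefrontal cortex. Array medians lay between 7.74 and 7.77 on the 4 arrays and between 7.61 and 7.78 on all 29. The control probe sets for actin gave a 5′ minus 3′ difference of -0.67 and -0.92 in TgS, -0.87 and -0.99 in TgR, and -1.41 and -1.26 in naive FVB/N, which lay below both lines. The median absolute difference between replicates was 0.12 in TgS and 0.08 in TgR, and between arrays of different lines it was 0.11 to 0.12. Whether any probe set reads the human transgenes was not tested, so the lines rest on their labels. Outside the 4 arrays, replicates 1 and 2 of the naive prefrontal cortex of all 3 strains (6 arrays) stood apart. Their mean level of 4 sex-linked transcripts was 5.37 to 5.97, against 7.53 to 7.91 on the other 23 arrays, and that of 24 splicing factors was 9.97 to 10.25 against 10.47 to 10.87. These 6 arrays enter the comparison through the shared spread, and the test against the prefrontal cortex directly, so some results are also given without them.

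Of 22626 transcripts (probe sets) tested with limma, 175 (0.773%) passed an adjusted p of 0.05 in TgS minus TgR. Of these, 85 (0.376%) were higher and 90 (0.398%) were lower in TgS, and 1980 passed an unadjusted p of 0.05. Taking the probe set with the highest mean as the representative of each gene, 103 genes were called, 44 higher and 59 lower. No array overlapped between the lines in any of the 103, while over all transcripts both TgS arrays lay above both TgR arrays in 18.7% and below them in 21.7%. The largest fold was 5.78 among the rises and 2.95 among the falls, and 16 genes rose and 3 fell by 2-fold or more. With those 6 arrays left out of the model, 664 transcripts (2.93%) were called, including all 175. The differences themselves are the same in both fits, and only the estimate of the spread changes. Without TgS replicate 1, TgS replicate 2, TgR replicate 1 or TgR replicate 2, the counts were 108, 93, 52 and 65. The genes that remained called without each of the 4 arrays in turn numbered 16: Cnmd, 1500004A13Rik, Ccdc59, Lsm12 and Plscr2 higher, and Tnnt2, Mocs2, Tmem267, Rasl11b, Tmem121b, Chil1, Acy3, Epor, Phgdh, Zfp239 and Mbd2 lower. The other 87 lost their call without at least 1 array.

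Genes of the choroid plexus epithelium, the tissue that secretes cerebrospinal fluid, gave the largest shift of any list. Of 19 measured members 7 rose in TgS and none fell, against 0.376% higher among all transcripts, and their median difference was 0.99 against -0.01 over all transcripts. All 19 differences were above 0, and in 16 both TgS arrays exceeded both TgR arrays, against 18.7% of all transcripts. Kl, which encodes the FGF co-receptor klotho, was at 8.86 and 8.78 in TgS and 6.04 and 6.54 in TgR, a difference of 2.53 ± 0.47 (standard error, limma) or 5.78-fold, with an adjusted p of 0.00970. The 2 TgS arrays were close together and both far above TgR. Ecrg4, a secreted peptide precursor, read 8.93 and 8.88 against 6.60 and 6.66 (2.27 ± 0.41, adjusted p = 0.00755 by limma). Kcne2, a potassium channel subunit of the apical membrane, read 7.06 and 7.00 against 5.19 and 5.24 (1.81 ± 0.42, adjusted p = 0.0495 by limma). Folr1, the folate receptor that carries folate into the cerebrospinal fluid, read 8.52 and 8.2 against 6.75 and 6.86 (1.56 ± 0.32, adjusted p = 0.0181 by limma). These 3 genes showed the same separation, with gaps between the lines wider than those between replicates. Kcne2 was not called under quantile normalization or with a trended and robust variance (adjusted p = 0.0555 and 0.0745 by limma). It stayed called with median centring and without the 6 naive prefrontal arrays (adjusted p = 0.0495 and 0.0411 by limma).

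Calml4, a calmodulin-like protein, read 7.93 and 7.96 in TgS and 6.75 and 6.22 in TgR (1.46 ± 0.24, adjusted p = 0.00393 by limma). Otx2, the homeobox factor that specifies choroid plexus, read 6.46 and 6.30 against 5.43 and 5.11 (1.11 ± 0.18, adjusted p = 0.00284 by limma). Igf2, a growth factor made by choroid plexus and meninges, read 10.58 and 10.47 against 9.47 and 9.60 (0.99 ± 0.20, adjusted p = 0.0167 by limma). All 7 called members thus had non-overlapping arrays. Ttr, the thyroxine carrier that is the most abundant choroid plexus product, read 13.87 and 13.79 in TgS and 12.12 and 12.81 in TgR, and its difference of 1.36 ± 0.56 did not pass (adjusted p = 0.434 by limma). Sostdc1 (1.25 ± 0.32) and Aqp1 (1.00 ± 0.39) did not pass either. Cldn2, a claudin of leaky epithelia, did not pass by its representative probe set (0.52 ± 0.12, adjusted p = 0.0533 by limma), while its other probe set, at 7.86 and 7.79 in TgS and 6.24 and 6.35 in TgR, was called (1.53 ± 0.27, adjusted p = 0.00622 by limma). Without TgS replicate 1, TgS replicate 2 or TgR replicate 1, 2 of the 19 were called in each case, and without TgR replicate 2 none was. With the 4 arrays fitted alone 11 were called, with the 11 caudate-putamen arrays 2, and without the 6 naive prefrontal arrays 10. The second Kl probe set, at 5.48 and 5.59 in TgS and 5.62 and 5.51 in TgR, gave -0.03 ± 0.13, and the second Igf2 probe set gave 0.32 ± 0.15 and was not called.

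**Figure D1:**
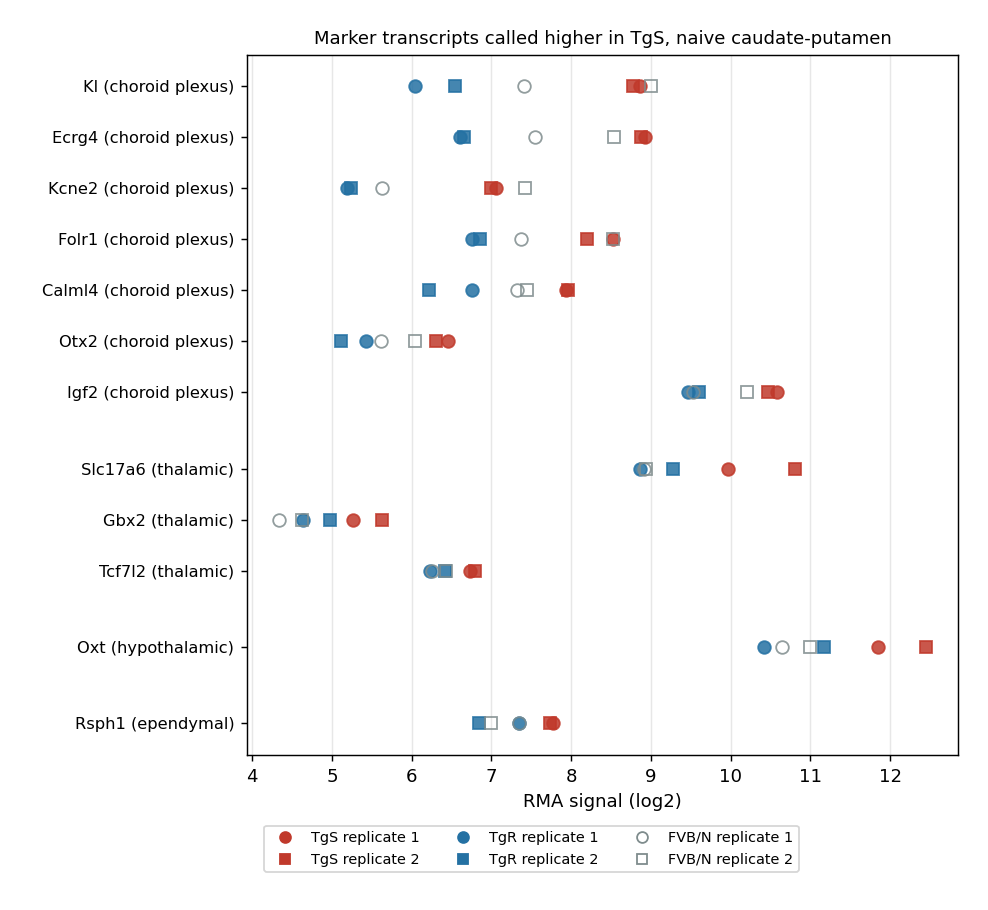
RMA signal (log2, x axis) of the 12 called members of the choroid plexus, thalamic, hypothalamic and ependymal lists in the naive caudate-putamen, one row per gene. Each point is 1 array (circles replicate 1, squares replicate 2); both TgS arrays lie above both TgR arrays in every row, and in Kl, Kcne2, Folr1 and Ecrg4 the FVB/N replicates lie far apart.

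The mean level of the choroid plexus list varied among arrays of the same group as well. It was 7.86 and 7.84 in TgS and 6.84 and 6.91 in TgR, whereas the naive FVB/N arrays, with no transgene, read 7.25 and 7.92. The 2 FVB/N replicates were thus 1 below and 1 above the TgS arrays. After MPTP the list was at 7.10 and 7.21 in TgS, 6.79 in TgR, and 6.74 and 7.74 in FVB/N. On the 18 prefrontal arrays it stayed between 6.12 and 6.57. None of its members was called between the lines in the MPTP caudate-putamen, where the median difference was 0.28. The part of choroid plexus RNA in the other differences between TgS and TgR was not tested. In bulk tissue, fewer cells of a type and less RNA per cell cannot be told apart.

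**Figure D2:**
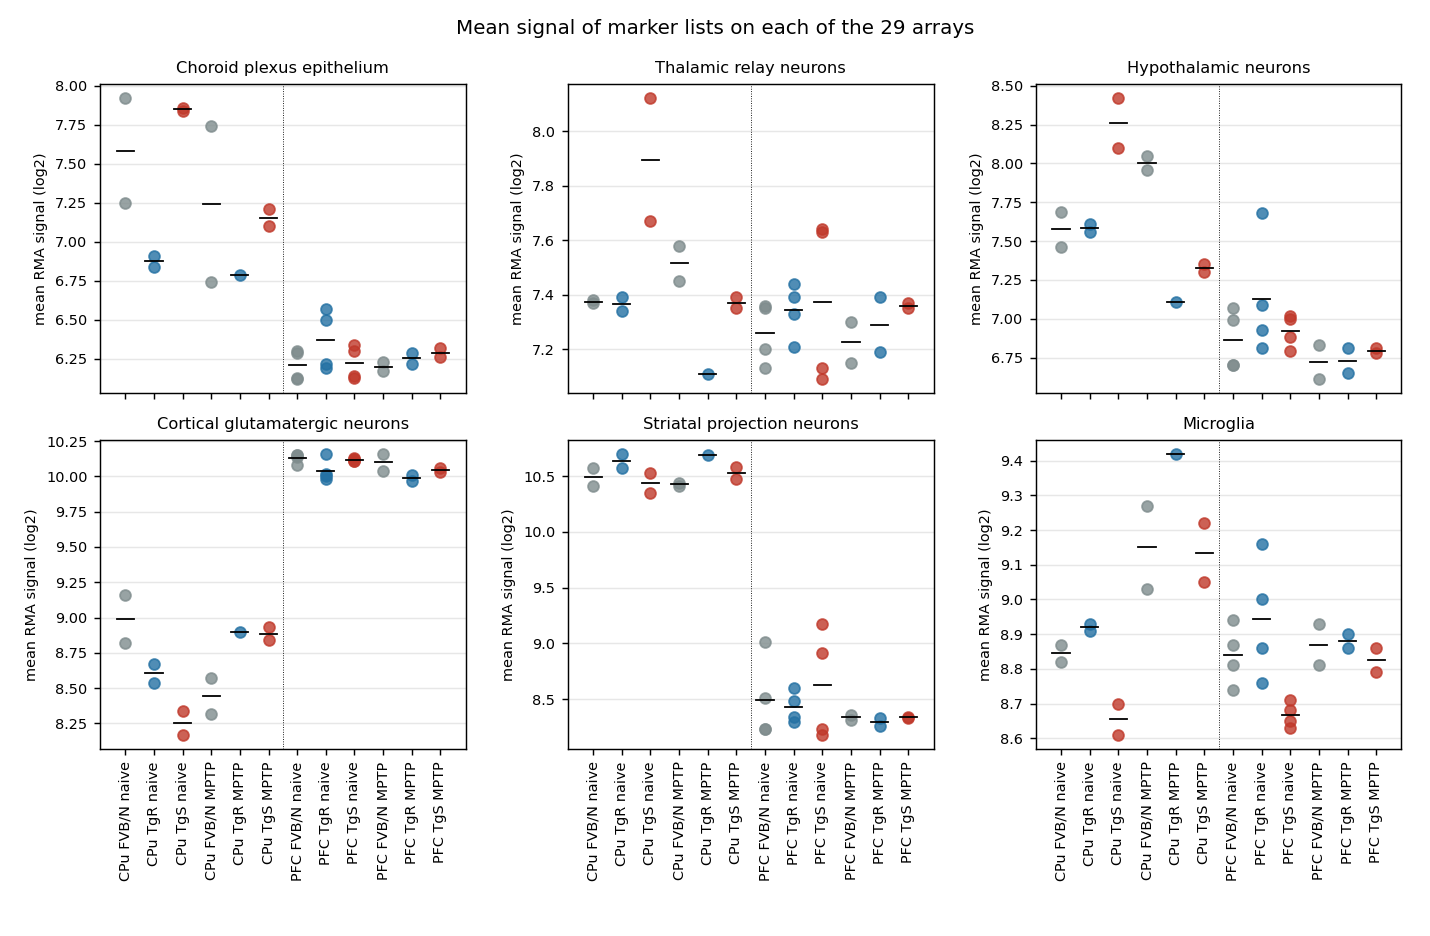
Mean RMA signal (log2, y axis) of 6 marker lists on each array, by region, strain and treatment (x axis; CPu, caudate-putamen; PFC, prefrontal cortex). Points are arrays and bars are group means. The choroid plexus list spans 6.74 to 7.92 among caudate-putamen arrays and 6.12 to 6.57 among prefrontal arrays.

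Because Otx2 is a transcription factor of this tissue, promoters of the list were searched for its core motif, TAATCC on either strand, in windows from 250 bases before to 50 after each RefSeq start. The motif was present in 2 of the 15 members with a window (Otx2 and Igf2). By window, 2 of their 22 and 7.06% of all 32851 held it. The 250 bases before 1 of the Otx2 starts, which hold it, lie at chr14:48665110-48665359 (- strand) of GRCm38.p6 and are shown 5′ to 3′ with the motif (here in reverse complement) in capitals.
Otx2: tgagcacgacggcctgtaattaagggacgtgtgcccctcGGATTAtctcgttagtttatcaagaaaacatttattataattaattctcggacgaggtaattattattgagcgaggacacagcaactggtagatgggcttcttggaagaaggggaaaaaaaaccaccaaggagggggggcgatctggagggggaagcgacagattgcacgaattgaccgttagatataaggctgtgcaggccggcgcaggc
A match of these letters is a description and not evidence of binding.

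Some marker genes of neighbouring brain regions also rose in TgS. Of 14 measured thalamic relay neuron genes 3 rose and none fell, against 0.376% higher among all transcripts. All 14 differences were above 0, against 10197 of all 22626 transcripts, and the median was 0.45. Slc17a6, which loads glutamate into vesicles in thalamic and hypothalamic neurons, was at 9.97 and 10.81 in TgS and at 8.86 and 9.28 in TgR (1.32 ± 0.21, 2.50-fold, adjusted p = 0.00286 by limma). Gbx2, a thalamic homeobox gene, read 5.27 and 5.63 against 4.64 and 4.98 (0.64 ± 0.14, adjusted p = 0.0405 by limma). Tcf7l2, a Wnt pathway transcription factor of thalamic neurons, read 6.73 and 6.79 against 6.23 and 6.42 (0.43 ± 0.09, adjusted p = 0.0184 by limma). In all 3 the TgS arrays lay above the TgR arrays. When the model had no term for naive prefrontal replicates 3 and 4, none of the list was called. Without TgS replicate 1, TgS replicate 2, TgR replicate 1 or TgR replicate 2, the list gave 5, 0, 1 and 3 calls. Its mean level was 7.67 and 8.12 in TgS, 7.39 and 7.34 in TgR, and 7.38 and 7.37 in FVB/N, so TgS replicate 2 was the highest.

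Over all transcripts 0.376% were called higher, the share to set beside the hypothalamic, ependymal and meningeal counts given here. Of 13 hypothalamic genes 1 rose, with a median of 0.50. This was Oxt, which encodes oxytocin, at 11.85 and 12.45 in TgS and 10.42 and 11.17 in TgR (1.36 ± 0.30, 2.56-fold, adjusted p = 0.0362 by limma). Avp, which encodes vasopressin, read 10.15 and 10.43 against 7.02 and 7.19, a difference of 3.19 ± 0.90 that did not pass (adjusted p = 0.131 by limma), and FVB/N replicates read 6.71 and 8.53. Without the 6 naive prefrontal arrays the same Avp difference was called (adjusted p = 0.000448 by limma). The Avp arrays of the lines did not overlap, while the FVB/N replicates of this gene lay far apart. The list's mean level was 8.10 and 8.42 in TgS and 7.56 and 7.61 in TgR. The list gave 2 calls without TgS replicate 1 and 2 without TgR replicate 2, and 0 without TgS replicate 2 or TgR replicate 1. Of 7 ependymal genes, Rsph1, a radial spoke protein of motile cilia, rose (7.77 and 7.74 against 7.34 and 6.84; 0.67 ± 0.15, adjusted p = 0.0397 by limma), and it was not called under quantile normalization or median centring (0.0711 and 0.0642). The ependymal list gave 0 calls without TgS replicate 1, TgS replicate 2 or TgR replicate 2, and 2 without TgR replicate 1. Of 15 meningeal and fibroblast genes, Igfbp2, which choroid plexus also makes, rose by 1.18 ± 0.25 (10.16 and 10 against 8.99 and 8.81, adjusted p = 0.0240 by limma), and it was not called without any 1 of the 4 arrays.

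The list of 18 measured striatal projection neuron genes gave no call. Of these, 17 lay below 0, with a median of -0.16, while 12264 of all 22626 transcripts lay below 0. Both TgS arrays were below both TgR arrays in 9, against 21.7% of all transcripts. Foxp1, a transcription factor of these neurons, read 10.53 and 10.54 in TgS and 10.82 and 11.13 in TgR (-0.44 ± 0.11, adjusted p = 0.0784 by limma). Ppp1r1b, the gene of DARPP-32, which inhibits a phosphatase in response to dopamine, read 12.32 and 11.95 against 12.39 and 12.48 (-0.30 ± 0.19), and Penk, which encodes enkephalin, differed by -0.10 ± 0.29. The phosphodiesterase Pde1b (-0.32 ± 0.13) and Pdyn, which encodes dynorphin (-0.32 ± 0.18), did not pass. With the 6 naive prefrontal arrays left out, 2 of the 18 were called lower. Of 14 cortical glutamatergic genes 1 fell, against 0.398% of all transcripts, and 11 lay below 0, with a median of -0.29. The one that fell was Mef2c, an activity-regulated transcription factor (11.28 and 11.20 against 11.48 and 11.68; -0.34 ± 0.07, adjusted p = 0.0215 by limma), and it was not called without TgS replicate 1, TgS replicate 2 or TgR replicate 2. The other 4 Mef2c probe sets were not called. Neurod6 read 5.13 and 5.61 in TgS, 6.52 and 6.99 in TgR and 8.37 and 7.61 in FVB/N, and its difference of -1.39 ± 0.39 did not pass. The order of this gene over the 6 arrays was FVB/N highest and TgS lowest, with no overlap. Among 12 GABAergic interneuron genes only Pvalb, the calcium buffer of fast-spiking interneurons, rose (10.22 and 10.44 against 9.38 and 9.48, 0.90 ± 0.19, adjusted p = 0.0249 by limma). Over all transcripts 0.376% were called higher, and Pvalb was not called without any 1 of the 4 arrays.

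**Figure D3:**
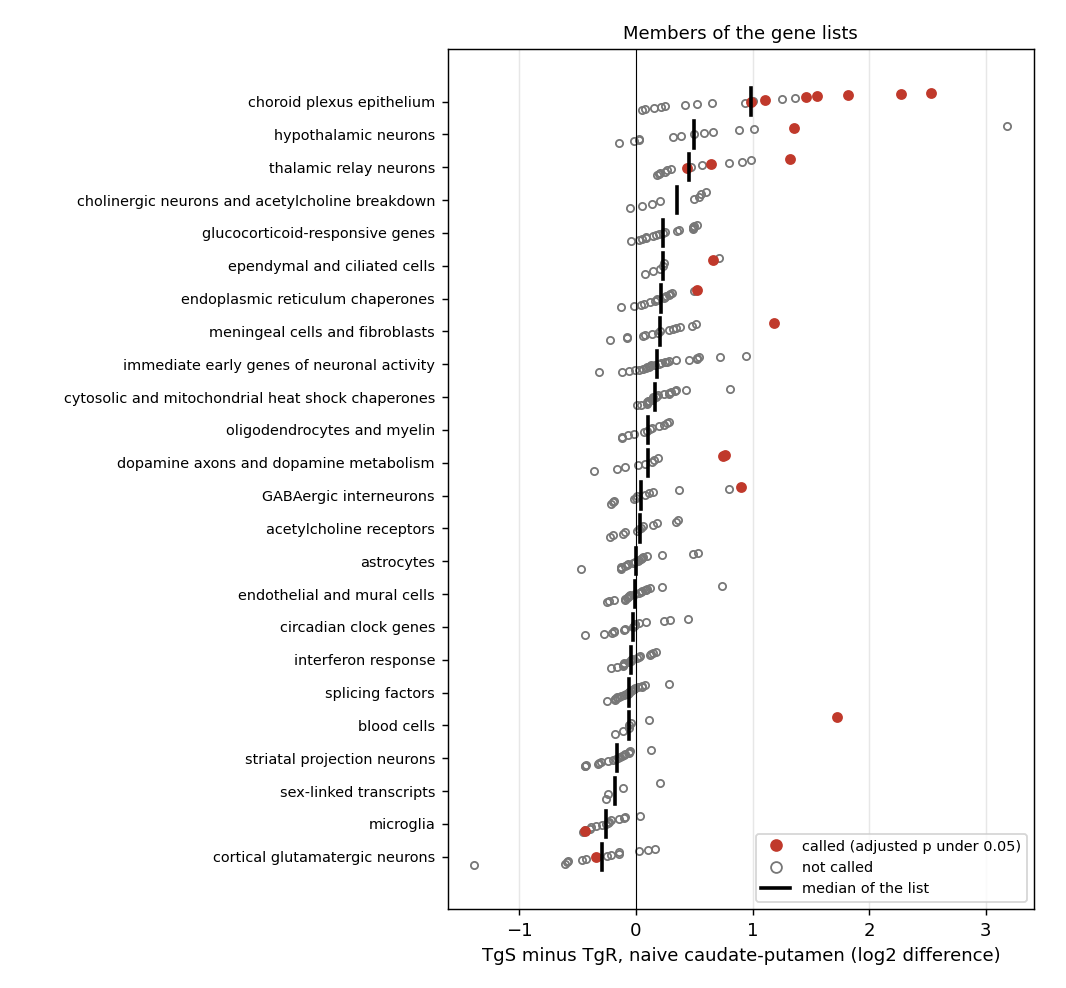
Log2 difference TgS minus TgR in the naive caudate-putamen (x axis) for the members of 24 gene lists (y axis), with called members filled, other members open and the median of each list as a bar. The choroid plexus list has the highest median (0.99) and the cortical list the lowest (-0.29).

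No gene of the cholinergic system was called. Mouse Ache, which encodes the enzyme whose human variants the lines carry, was at 10.22 and 10.37 in TgS, 9.83 and 9.77 in TgR and 9.65 and 9.64 in FVB/N. The TgS arrays were the highest, and the difference of 0.49 ± 0.14 (1.41-fold) between TgS and TgR did not pass (adjusted p = 0.123 by limma). Whether this probe set also reads human transcripts was not tested. Slc18a3, the vesicular acetylcholine transporter, read 8.10 and 7.94 against 7.32 and 7.52 (0.60 ± 0.17, adjusted p = 0.125 by limma). Slc5a7, the choline transporter, read 6.99 and 6.89 against 6.19 and 6.61 (0.54 ± 0.20, adjusted p = 0.328 by limma), and Ngfr, the p75 neurotrophin receptor of basal forebrain cholinergic neurons, differed by 0.56 ± 0.18 (adjusted p = 0.234 by limma). These 4 genes had non-overlapping arrays, as 18.7% of all transcripts did in that direction. Bche, the related butyrylcholinesterase, differed by 0.05 ± 0.09. In all, 7 of the 8 measured members lay above 0, with a median of 0.35. Without the 6 naive prefrontal arrays 2 were called, Ache and Slc18a3 (adjusted p = 0.0298 and 0.0154 by limma). Chat, the synthesising enzyme, had no probe set with a single symbol. Of 12 acetylcholine receptor genes none passed and the median was 0.04. The nicotinic subunits Chrna4 and Chrnb2 differed by 0.36 ± 0.15 and 0.34 ± 0.12, and the muscarinic receptors Chrm1 and Chrm4 by -0.20 ± 0.21 and -0.22 ± 0.24.

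Of 10 genes of dopamine axons and dopamine metabolism 2 rose, against 0.376% of all transcripts. Aldh1a1, the dehydrogenase that clears the dopamine aldehyde in a subset of midbrain neurons, read 9.57 and 9.63 in TgS and 8.78 and 8.93 in TgR (0.75 ± 0.12, adjusted p = 0.00390 by limma). Sncg, which encodes gamma-synuclein, read 7.69 and 7.52 against 6.82 and 6.87 (0.76 ± 0.16, adjusted p = 0.0256 by limma). Both had replicate gaps far smaller than the difference between the lines. Aldh1a1 lost its call without TgR replicate 1 (adjusted p = 0.0991 by limma), and Sncg was not called without any 1 of the 4 arrays. The list median was 0.11.

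Chaperone genes lay slightly higher in TgS with few calls. All 22 measured cytosolic and mitochondrial heat shock chaperones were above 0 (median 0.16), and none passed. Both TgS arrays exceeded both TgR arrays in 18 of them, against 18.7% of all transcripts. Hspa1a, an inducible HSP70, read 7.34 and 6.92 in TgS and 6.39 and 6.25 in TgR (0.81 ± 0.24, adjusted p = 0.161 by limma). Hspa1a and Hspa1b are near-identical copies whose probe sets may share transcripts, so each value is uncertain. Hspa4l differed by 0.33 ± 0.10 and Dnajb1, a co-chaperone of HSP70, by 0.34 ± 0.11. Of 16 endoplasmic reticulum chaperones 14 lay above 0 (median 0.21) and 1 passed, against 0.773% of all transcripts. This was Hyou1, which folds secreted proteins, at 10.29 and 10.41 in TgS and 9.80 and 9.85 in TgR (0.53 ± 0.11, adjusted p = 0.0163 by limma), and it was not called without any 1 of the 4 arrays. Hspa5, the major chaperone of this compartment, read 12.01 and 11.96 against 11.61 and 11.74 (0.31 ± 0.09, adjusted p = 0.169 by limma). Naive FVB/N read 12.02 and 11.86 for Hspa5, above both TgR arrays.

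Promoters of each chaperone list were searched for 1 known element. The heat shock element was searched as GAANNTTC or TTCNNGAA on both strands. It was present in 12 of the 18 heat shock chaperones with a window. By window it was in 13 of their 26 and in 15.1% of all windows. The endoplasmic reticulum stress element, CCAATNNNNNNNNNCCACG on both strands, was added after the values were seen and was present in 7 of 14 members (Calr, Canx, Creld2, Dnajc3, Hsp90b1, Hspa5 and Pdia6) and in 0.119% of all windows. The 250 bases before the start are shown for Hspd1, a mitochondrial chaperonin with overlapping heat shock elements, and for Hspa5 and Dnajc3, with 1 stress element each, with the elements in capitals. They lie at chr1:55087933-55088182 (- strand), chr2:34771840-34772089 (+ strand) and chr14:118937682-118937931 (+ strand) of GRCm38.p6.
Hspd1: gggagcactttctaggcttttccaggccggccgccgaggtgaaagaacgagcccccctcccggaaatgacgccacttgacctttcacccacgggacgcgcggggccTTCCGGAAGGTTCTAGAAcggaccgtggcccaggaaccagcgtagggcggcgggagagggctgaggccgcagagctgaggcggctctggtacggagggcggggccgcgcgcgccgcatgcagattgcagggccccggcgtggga
Hspa5: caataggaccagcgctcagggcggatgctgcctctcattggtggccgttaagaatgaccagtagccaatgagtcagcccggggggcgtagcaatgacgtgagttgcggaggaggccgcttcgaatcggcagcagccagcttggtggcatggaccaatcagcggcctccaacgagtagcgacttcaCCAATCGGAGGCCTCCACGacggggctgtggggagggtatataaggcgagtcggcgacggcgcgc
Dnajc3: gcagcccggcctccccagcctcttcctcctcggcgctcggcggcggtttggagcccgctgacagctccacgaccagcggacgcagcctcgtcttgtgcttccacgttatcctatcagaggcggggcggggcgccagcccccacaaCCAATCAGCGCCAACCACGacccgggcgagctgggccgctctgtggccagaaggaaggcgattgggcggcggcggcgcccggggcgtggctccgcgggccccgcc
Their log2 differences were 0.17 ± 0.07, 0.31 ± 0.09 and 0.26 ± 0.11 in that order by the representative probe sets, and none of these passed. Of the other 4 Dnajc3 probe sets 1 was called (0.36 ± 0.08, adjusted p = 0.0374 by limma).

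Among the other lists, 1 member each was called in the microglial and blood lists and none in the rest, against 0.773% of all transcripts. Of 15 microglial genes 14 lay below 0 (median -0.26) and in 13 both TgS arrays were below both TgR arrays, against 21.7% of all transcripts. Cd68, a lysosomal protein of phagocytes, fell (7.77 and 7.6 against 8.16 and 8.09; -0.44 ± 0.10, adjusted p = 0.0478 by limma). It was not called without any 1 of the 4 arrays, nor under quantile normalization or median centring (adjusted p = 0.0555 and 0.0522 by limma), and it was also called lower in the other 3 comparisons of the lines described further on. Without the 6 naive prefrontal arrays, the naive prefrontal difference of Cd68 was -0.24 and was not called (adjusted p = 0.15 by limma). The microglial list's mean level was 8.70 and 8.61 in TgS and 8.91 and 8.93 in TgR, and 4 members were called lower without the 6 naive prefrontal arrays. Aif1, the calcium-binding microglial marker IBA1, read 8 and 8.09 against 8.54 and 8.43 (-0.44 ± 0.13, adjusted p = 0.148 by limma). The 24 immediate early genes had a median of 0.18, and the largest difference, in the nuclear receptor Nr4a1, was 0.94 ± 0.34 (11.08 and 10.61 against 10.25 and 9.56, adjusted p = 0.319 by limma). The 17 glucocorticoid-responsive genes had a median of 0.23, with 0.49 ± 0.19 for Tsc22d3, which encodes the anti-inflammatory protein GILZ. Medians were 0.11 for oligodendrocytes and myelin, 0.01 for astrocytes, -0.01 for endothelial and mural cells, -0.04 for the interferon response, -0.02 for circadian clock genes, -0.06 for splicing factors and -0.17 for sex-linked transcripts. Several list medians are near 0 and turned sign or reached 0 under some settings, leaving out 1 array included: the astrocyte median in 5 settings (-0.03 to 0.01), the endothelial in 4 (-0.14 to 0.08), the clock (-0.09 to 0.01) and acetylcholine receptor medians (-0.05 to 0.14) in 2 each, and the oligodendrocyte (-0.0025 to 0.21), splicing (-0.18 to 0.01), interneuron (-0.03 to 0.11) and blood medians (-0.12 to 0.06) in 1 each.

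Part of the differences between the lines was also present in other tissue or after MPTP, on arrays that are not shared with the naive caudate-putamen. Of the 175 transcripts, 78 were called in the same direction in the MPTP caudate-putamen (44.6% of the 175 and 32.1% of the calls there), 65 in the MPTP prefrontal cortex (37.1% and 25.3%), and 100 in the naive prefrontal cortex (57.1% and 2.38%). Those 3 comparisons called 1.07%, 1.14% and 18.6% of all transcripts. Opposite calls numbered 0, 2 and 7. Among genes that differed between the regions in the test given further on, Slc17a6, Tac2 and Aldh1a1 were called higher in the MPTP caudate-putamen too. Their differences there, with 1 TgR array, were 1.20, 1.08 and 0.67. Calml4 (0.185), Otx2 (0.805), Cnmd (0.475) and Fmod (-0.52) were not called there. In all 4 comparisons 46 transcripts were called in the same direction, 19 higher and 27 lower, which stand for 33 named genes.

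Among the representative probe sets, the largest fall was in Tnnt2, the cardiac troponin T gene, at 5.12 and 4.79 in TgS, 6.60 and 6.43 in TgR and 6.50 and 6.28 in FVB/N (-1.56 ± 0.15, adjusted p = 2.30e-05 by limma). Mocs2, an enzyme of molybdenum cofactor synthesis, read 9.42 and 9.54 in TgS, 10.85 and 10.81 in TgR and 10.87 and 10.75 in FVB/N (-1.35 ± 0.12, adjusted p = 2.02e-05 by limma). The second Mocs2 probe set gave -0.12 ± 0.18 (adjusted p = 0.969 by limma), while both of Tnnt2 were called. In both genes FVB/N lay with TgR and TgS stood apart. The differences of Tnnt2 in the MPTP caudate-putamen, naive prefrontal cortex and MPTP prefrontal cortex were -1.77, -1.20 and -1.42, and those of Mocs2 were -1.47, -1.17 and -1.23. Tmem267, a membrane protein, fell by 0.81 ± 0.11 here, and its other 3 differences were -0.72, -0.78 and -0.71. Phgdh, the first enzyme of serine synthesis, read 10.38 and 10.43 against 11.15 and 11.04 (-0.69 ± 0.09, adjusted p = 0.000514 by limma). The other 3 Phgdh probe sets were called as well. One of them read 5.17 and 4.65 against 10.73 and 10.7, with FVB/N at 10.75 and 10.6 (-5.80 ± 1.24, 55.9-fold lower, adjusted p = 0.0273 by limma). Chil1, a secreted chitinase-like protein of astrocytes, read 7.28 and 7.36 against 8.04 and 8.03 (-0.71 ± 0.11, adjusted p = 0.00244 by limma). Phgdh and Chil1 were named after their values were seen, and these representative probe sets were called in all 4 comparisons.

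The called rises shared by all 4 comparisons included Ighm, the immunoglobulin mu heavy chain, at 9.81 and 9.63 in TgS and 7.89 and 8.11 in TgR (1.72 ± 0.29, 3.29-fold, adjusted p = 0.00561 by limma). It was one of 11 probe sets for Ighm, and the other 10 were not called. Rasd1, a Ras-like GTPase induced by dexamethasone, read 8.31 and 8.26 against 7.39 and 6.28 (1.45 ± 0.25, adjusted p = 0.00639 by limma), with TgR replicate 2 far below TgR replicate 1. Its differences in the MPTP caudate-putamen, naive prefrontal cortex and MPTP prefrontal cortex were 2.10, 0.65 and 1.69. Without the 6 naive prefrontal arrays its naive prefrontal difference was 0.60 and was not called (adjusted p = 0.194 by limma). The transcript 1500004A13Rik read 6.90 and 6.91 against 5.78 and 5.64 (1.19 ± 0.16), Lsm12, an RNA-binding protein, 8.11 and 8.27 against 7.37 and 7.35 (0.83 ± 0.12), and Ccdc59, a coiled-coil protein, 6.00 and 6.04 against 5.12 and 4.96 (0.98 ± 0.12). These 3 passed without each of the 4 arrays in turn. Acer2, a Golgi ceramidase named after its values were seen, rose by 0.91 ± 0.15 here and by 1.71, 0.48 and 1.69 in the others. Its second probe set was not called here (-0.15 ± 0.09). Without TgS replicate 1 or TgR replicate 1 Ighm was not called (adjusted p = 0.0547 and 0.0995 by limma), and Rasd1 was not called without TgS replicate 1, TgS replicate 2 or TgR replicate 2 (0.0539, 0.0506 and 0.147).

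Gpr137b and its neighbour Gpr137b-ps, near-identical copies whose probe sets may share transcripts, differed from the pattern of Tnnt2. Gpr137b read 8.73 and 8.99 in TgS, 9.63 and 9.66 in TgR and 8.97 and 8.86 in FVB/N (-0.79 ± 0.13, adjusted p = 0.00341 by limma), so here FVB/N lay with TgS. Of its 4 probe sets 2 were called. Glo1, the glyoxalase that detoxifies methylglyoxal, was at 11.93 and 11.91 in TgS and 10.55 and 10.56 in TgR (1.36 ± 0.23, adjusted p = 0.00561 by limma), and all 3 of its probe sets were called. In the naive prefrontal cortex Glo1 differed by 1.44 and was called, while after MPTP it differed by 0.34 in the caudate-putamen and 0.22 in the prefrontal cortex and was not. The test of naive against MPTP caudate-putamen did not call Glo1. Glo1 lost its call without TgR replicate 1 or TgR replicate 2 (adjusted p = 0.0731 and 0.0579 by limma), and Gpr137b without TgS replicate 1 (0.0594). Erdr1 read 10.17 and 10.70 in TgS, 11.51 and 11.41 in TgR and 12.05 and 11.96 in FVB/N (-1.02 ± 0.17, adjusted p = 0.00390 by limma). Of the 10 genes that earlier results of these data had named as differing in either line, 3 rose and 5 fell. Smarcc1 (1.30 ± 0.47) and Tmem159 (-0.60 ± 0.17) did not pass. Without the 6 naive prefrontal arrays both were called (adjusted p = 1.80e-05 and 0.00467 by limma). As this list was chosen on these arrays, its counts are no independent evidence.

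**Figure D4:**
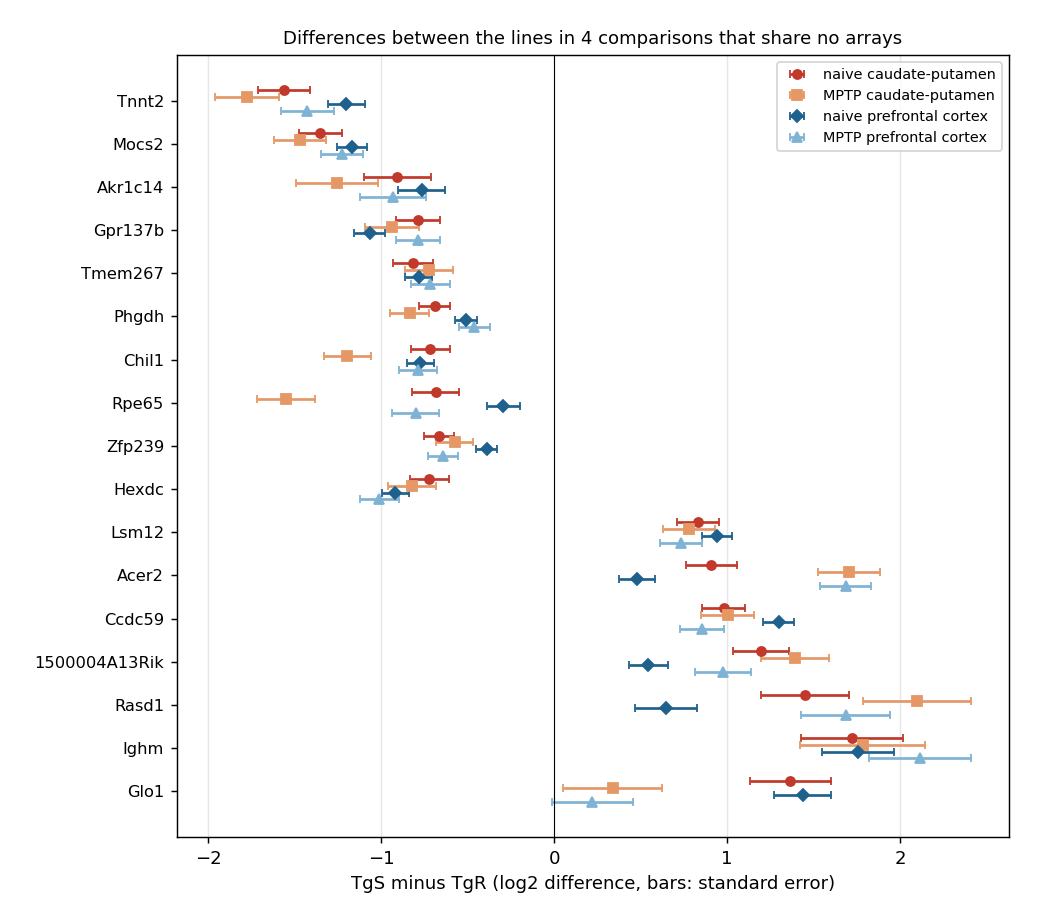
Log2 difference TgS minus TgR (x axis) of 17 genes (y axis) in 4 comparisons that share no arrays, with standard errors from the limma model. 16 genes were picked from those called in the same direction in all 4 comparisons, so their agreement is the choice and not a finding. Glo1 was called in the naive groups only. Acer2, Hexdc and Rpe65 were named after their values were seen.

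Some of the largest differences belonged to a single probe set of a gene. The 152 called transcripts with 1 symbol stand for 136 genes, of which 68 have several probe sets. In 7 of these 68 every probe set was called, and in 61 at least 1 was not. The following probe sets were not the representative ones, and were named after their values were seen. A probe set of Pnpt1, a mitochondrial RNA-processing enzyme, read 4.33 and 4.59 in TgS and 7.94 and 7.73 in TgR (-3.38 ± 0.45, 10.4-fold lower, adjusted p = 0.000640 by limma), and FVB/N read 7.78 and 7.61. The other Pnpt1 probe set gave 0.51 ± 0.18 and was not called. A probe set of Galc, the lysosomal galactosylceramidase, read 8.42 and 8.70 against 5.05 and 5.52 (3.27 ± 0.59, 9.68-fold, adjusted p = 0.00750 by limma), while its representative gave -0.63 ± 0.17. A probe set of Stx3, a syntaxin of membrane fusion, read 8.40 and 8.84 against 6.33 and 6.37 (2.27 ± 0.25, adjusted p = 9.47e-05 by limma), while the representative gave -0.28 ± 0.16. In each of these genes the probe sets thus disagreed, so the values describe a probe set and not the whole gene.

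Acad9, a mitochondrial acyl-CoA dehydrogenase, was the gene with called probe sets in opposite directions. One read 8.09 and 8.33 in TgS and 9.10 and 9.16 in TgR (-0.92 ± 0.16, adjusted p = 0.00603 by limma), and the other 8.75 and 8.79 against 8.01 and 8.14 (0.69 ± 0.16, adjusted p = 0.0478 by limma). Ndufv1, a complex I subunit, had 1 probe set at 11.11 and 11.13 against 10.34 and 10.24 (0.83 ± 0.11), with -0.06 ± 0.07 and 0.05 ± 0.10 in the other two. Acaa2, a thiolase of fatty acid oxidation, had 1 at 8.95 and 8.76 against 7.81 and 7.79 (1.05 ± 0.17), with -0.04 ± 0.10 in the representative. Malat1, a nuclear non-coding RNA, had 1 of 5 probe sets called (1.32 ± 0.20). The probe sets of Pnpt1, Galc, Stx3, Ndufv1, Acaa2 and Malat1 named here were called in the same direction in all 4 comparisons.

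**Figure D5:**
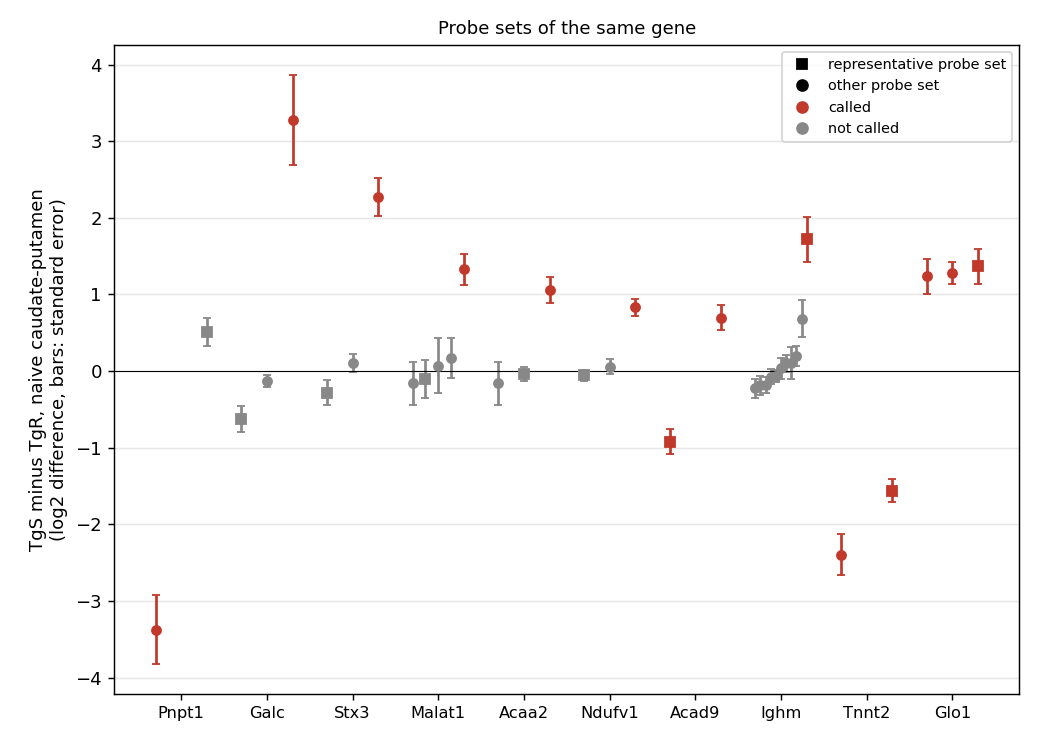
Log2 difference TgS minus TgR in the naive caudate-putamen (y axis, bars are standard errors from limma) for every probe set of 10 genes (x axis); squares are representative probe sets, circles the others, and red marks called ones. Pnpt1, Galc and Stx3 each hold 1 probe set beyond 2 log2 units and others within 1, Acad9 holds both directions, and in Tnnt2 and Glo1 all probe sets moved together.

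Further called genes lay outside the lists. Of those given here, Nefh and Dlk1 were named after their values were seen. Nefh, the heavy neurofilament subunit of axons, read 9.67 and 9.90 in TgS and 9.22 and 9.29 in TgR (0.53 ± 0.09, adjusted p = 0.00561 by limma). Zfp423, a zinc finger factor of neural progenitors, read 8.12 and 8.58 against 7.40 and 7.13 (1.09 ± 0.19, adjusted p = 0.00699 by limma). Dlk1, an imprinted Notch-family ligand, read 8.08 and 7.96 against 7.17 and 6.98 (0.94 ± 0.17, adjusted p = 0.00779 by limma). Among the falls, Crym, a thyroid hormone-binding protein of striatal neurons, read 10.33 and 9.95 against 11.19 and 10.81 (-0.86 ± 0.15, adjusted p = 0.00603 by limma). Cldn23, a claudin, read 5.19 and 4.92 against 5.86 and 6.20 (-0.98 ± 0.17, adjusted p = 0.00561 by limma). The remaining large falls were Akr1c14 (-0.91 ± 0.19), Ikbip (-0.90 ± 0.18), Dtl (-0.89 ± 0.18), Rlbp1 (-0.89 ± 0.16), Pisd-ps3 (-0.85 ± 0.16), Zfp40 (-0.84 ± 0.19) and Rasl11b (-0.81 ± 0.13). Their arrays did not overlap between the lines, which the rule for naming them required. Of these only Rasl11b stayed called without each of the 4 arrays in turn. The second Dtl probe set gave -0.04 ± 0.10 and was not called. Without TgS replicate 2 or TgR replicate 1 Crym was not called (adjusted p = 0.115 and 0.166 by limma). Nefh was not called without TgS replicate 2 or TgR replicate 1 (0.104 and 0.0995), nor Cldn23 without TgS replicate 2 or TgR replicate 2 (0.0899 and 0.125).

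Whether the difference between the lines was unequal between the caudate-putamen and the naive prefrontal cortex was tested directly. The test is signed, so a call does not say in which region the difference was larger in size. Of 22626 transcripts 42 (0.186%) were called, 35 with the higher TgS minus TgR difference in the caudate-putamen and 7 with the lower. In the caudate-putamen itself 23 of the 42 were also called, against 0.773% of all transcripts. Both tests use the same 4 arrays, so this overlap is partly built in and is no evidence. Slc17a6 differed by 1.32 in the caudate-putamen and -0.23 in the prefrontal cortex (gap 1.54 ± 0.26, adjusted p = 0.0137 by limma). Calml4 differed by 1.46 and -0.08 (gap 1.54 ± 0.30, adjusted p = 0.0347 by limma). Otx2 differed by 1.11 and -0.16 (gap 1.27 ± 0.22, adjusted p = 0.0139 by limma). None of these 3 genes was called between the lines in the naive prefrontal cortex. Tac2, which encodes neurokinin B, differed by 0.98 and -0.39 (gap 1.37 ± 0.23, adjusted p = 0.0137 by limma), and Cnmd, which encodes chondromodulin, by 1.36 and 0.09 (gap 1.27 ± 0.22, adjusted p = 0.0145 by limma). In the prefrontal cortex Tac2 was called in the opposite direction (adjusted p = 0.0460 by limma) and Cnmd was not called. With the 6 prefrontal arrays that stood apart left out, the prefrontal difference of Tac2 was -0.025 and was not called (adjusted p = 0.948 by limma). Its gap was then 1.005 and was still called (adjusted p = 0.0318 by limma). On the 4 arrays, TgS before TgR, Tac2 read 9.38 and 9.65 against 8.31 and 8.76, and Cnmd 6.06 and 6.55 against 5.14 and 4.76. Without the 6 prefrontal arrays described above, the gap of Calml4 was 1.30 and was not called (adjusted p = 0.0955 by limma). The count was unstable to single arrays: it was 134 without TgS replicate 1, 0 without TgS replicate 2, 11 without TgR replicate 1 and 13 without TgR replicate 2.

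The same test between naive and MPTP-exposed caudate-putamen called 2 transcripts (0.00884%). Fmod, which encodes the collagen-binding protein fibromodulin, read 8.26 and 8.24 in naive TgS and 7.58 and 7.62 in naive TgR, a difference of 0.65 ± 0.11, and its difference after MPTP was -0.52 ± 0.14 (gap 1.17 ± 0.18, adjusted p = 0.0368 by limma). Ifit3, an interferon-induced antiviral gene, read 7.33 and 7.25 against 7.34 and 7.18 in naive mice (0.03 ± 0.08), and its difference after MPTP was -0.88 ± 0.10 (gap 0.91 ± 0.13, adjusted p = 0.0141 by limma). Only Fmod of these 2 was called between the lines in naive tissue, by its representative probe set. Its other probe sets gave 0.13 to 0.625 there and were not called. The naive difference of Fmod was not called without any 1 of the 4 arrays. Without the 6 naive prefrontal arrays Fmod was not called in the test against MPTP (adjusted p = 0.0553 by limma). The TgR side after MPTP is 1 array, and the count was 4 without TgS replicate 1, 1 without TgS replicate 2 or TgR replicate 1 and 0 without TgR replicate 2.

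The naive FVB/N arrays show on which side of the parent strain each line lay, with values that share arrays with those above and are given side by side only. For Slc17a6 TgS minus FVB/N was 1.46 and TgR minus FVB/N was 0.15, and for Oxt they were 1.33 and -0.02. For Kl they were 0.61 and -1.92, and for Ecrg4 they were 0.86 and -1.41. The thalamic and hypothalamic genes thus read near FVB/N in TgR, whereas these choroid plexus genes read between the lines in FVB/N, whose 2 replicates lay far apart. Over the lists, the medians of TgS minus FVB/N and TgR minus FVB/N were 0.42 and 0.02 for thalamic genes, 0.68 and 0.02 for hypothalamic genes, 0.32 and -0.56 for choroid plexus genes, and -0.57 and -0.32 for cortical genes.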

How the data were processed

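Total RNA was hybridised to 29 Affymetrix arrays. The deposited values are log2 signals per probe set, made by the authors with RMA (Affymetrix Expression Console and Affymetrix Power Tools), per the submitters' processing notes; RMA subtracts background, equalises array distributions and compresses small folds. No source used here gives versions or says whether all arrays were summarised together. No filter was applied. Of 22690 probe sets, 64 controls were left out; 20380 of the 22626 tested carry 1 gene symbol, 691 several and 1555 none. A gene is represented by its probe set with the highest mean over all arrays (12393 genes).

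A linear model in limma 3.58.1 (R 4.3.3) had a mean for each of 12 groups and a term for naive prefrontal replicates 3 and 4, whose region label is spelled differently, with 16 residual degrees of freedom. All groups share 1 estimate of the spread. Tests were two-sided, adjusted by Benjamini-Hochberg over all transcripts, called under 0.05 and checked on simulated data. The number of arrays limits the precision. ± is the standard error. The rule for named genes took the 15 largest called rises and falls without overlapping arrays, Ache, Bche and Chat, the list from earlier results, the called members of each list (otherwise up to 3 with the smallest p), and the 5 largest differences in both tests between groups; of uncalled list members, only some are printed. Other genes are said to be named after their values were seen, or stand in a count or beside their list. The groups compared and all 25 gene lists were chosen with earlier results of these data known. Promoter windows are from RefSeq (GRCm38.p6).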

Additional observations from a re-analysis of the deposited data

Results flagged for a closer look

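In 9 results the difference between TgS and TgR in the naive caudate-putamen departed from that in another group by a limma test of the difference itself. Against the naive prefrontal cortex the gaps, in log2 units with adjusted p, were 1.54 ± 0.30 for Calml4 (0.0347), 1.27 ± 0.22 for Cnmd (0.0145), 1.54 ± 0.26 for Slc17a6 (0.0137), 1.27 ± 0.22 for Otx2 (0.0139), 0.75 ± 0.15 for Aldh1a1 (0.0434), 1.37 ± 0.23 for Tac2 (0.0137) and 0.97 ± 0.14 for Fmod (0.00898). Aldh1a1 differed by 0.74 in the caudate-putamen and -0.01 in the prefrontal cortex, and Fmod by 0.65 and -0.33. Without the 6 naive prefrontal arrays that stood apart, Calml4 (gap 1.30, adjusted p = 0.0955 by limma) and Aldh1a1 (gap 0.55, adjusted p = 0.0919 by limma) were not called. Against the MPTP-exposed caudate-putamen the gaps were 1.17 ± 0.18 for Fmod (0.0368) and 0.91 ± 0.13 for Ifit3 (0.0141), with 1 TgR array after MPTP, and without the 6 arrays Fmod was not called (0.0553).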

How the results depend on the processing

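Of 175 called transcripts none turned sign under the 14 settings, which was largely fixed in advance. Most settings leave the group means, and so the difference, as they are. Where the arrays of the lines do not overlap, leaving out 1 array cannot turn the sign. The count was 76 (37 higher, 39 lower) with no set term, 664 (338, 326) without the 6 naive prefrontal arrays and 341 (185, 156) with caudate-putamen arrays alone. With the replicate number as a block it was 92 (52, 40), and 91 of the 175 remained called; deviations of same-numbered TgS and TgR arrays did not correlate (r = -0.0005), so the numbers are not known to pair the arrays. Leaving out 1 array gave 52 to 108 calls, 25 to 75 higher and 23 to 64 lower; the share higher was 69.4% without TgS replicate 1, 31.2% without TgS replicate 2 and 64.6% without TgR replicate 2, and 61.8% with the 4 arrays alone. Other settings gave 141 to 178 calls.

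The count of the test against the prefrontal cortex was 1 with no set term, 134 without the 6 arrays, 13 with the replicate block and 0 to 134 without 1 array. That against MPTP was 0 with no set term, with caudate-putamen arrays alone or with the replicate block, 1 without the 6 arrays, with quantile normalization or with median centring, and 0 to 4 without 1 array. The causes were not tested. With 2 arrays a group, the number of arrays limits the precision.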
